A study of Mus musculus with 4 samples.

Results

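CpG-dense DNA is usually either free of methylation or fully methylated. The regions described here are the exception: 1 kb stretches of the autosomes with 40 or more CpGs that were partly methylated in the brain of the WT embryo of the 3 ppm diet. They were chosen by 3 measures. The regions had at least 40 CpGs listed in any of the 4 libraries, at least 3 of those CpGs had 5 or more reads in every library, and their summed methylation level in WT 3 ppm was from 20% to under 80%. This gave 3067 regions of 1863069 autosomal 1 kb regions that could be scored, and of 15574 CpG-dense ones. WT 3 ppm therefore chose the members and cannot be used to test them. Whole-genome bisulfite sequencing (WGBS), which reads unmethylated cytosines as thymines, had been done on 1 brain of an E11.5 embryo in each of 4 groups. Each group was a single male, wild type (WT) or lacking Tet1 (knockout, KO), from a Tet1 heterozygous dam fed folic acid (FA) at 30 ppm or at 3 ppm. All 4 embryos were of the 129S6 strain with a Tet1 allele first made on C57BL/6, and all dams received custom diets with an added antibacterial agent. The 4 embryos came from 4 litters, and the study's sample list gives a neural tube defect for both KO embryos and none for the WT ones. Genotype and phenotype cannot be told apart here. A test between 2 libraries compares the reads of 2 embryos and has no replicate check.

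CpG islands are short stretches of DNA rich in CpG that mark many promoters, and they mostly stay unmethylated. At their ends, in the flanking shores, methylation climbs to the level of the surrounding DNA. TET1 is a dioxygenase with a CpG-binding domain that oxidises 5-methylcytosine and so opens a way to its removal. At imprinted genes a different kind of intermediate level arises, because the control region is methylated on the copy from 1 parent and free of methylation on the other.

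Sequences of 8 members carry the main patterns and were read from the GRCm38.p6 genome, the build of the deposited files. For each, the 200 bases that held the most scored CpGs are given 5′ to 3′, with every CpG in capitals. Dkk1, Cacng2, Hs3st3a1 and Tdrd6 had higher methylation in KO, Peg10 and Peg13 had lower methylation in KO at 30 ppm, and Gnas and Mest were higher in KO under 30 ppm than under 3 ppm.
Dkk1 (chr19:30539442-30539641, + strand): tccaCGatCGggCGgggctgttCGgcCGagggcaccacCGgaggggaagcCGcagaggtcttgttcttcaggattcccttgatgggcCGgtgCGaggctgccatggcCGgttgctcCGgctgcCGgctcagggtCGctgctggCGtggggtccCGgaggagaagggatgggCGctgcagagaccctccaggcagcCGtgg
Cacng2 (chr15:78119204-78119403, + strand): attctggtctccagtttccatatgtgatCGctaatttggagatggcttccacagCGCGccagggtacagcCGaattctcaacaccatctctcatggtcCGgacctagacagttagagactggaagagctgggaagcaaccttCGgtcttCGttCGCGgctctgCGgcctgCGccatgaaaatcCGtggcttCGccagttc
Hs3st3a1 (chr11:64520631-64520830, + strand): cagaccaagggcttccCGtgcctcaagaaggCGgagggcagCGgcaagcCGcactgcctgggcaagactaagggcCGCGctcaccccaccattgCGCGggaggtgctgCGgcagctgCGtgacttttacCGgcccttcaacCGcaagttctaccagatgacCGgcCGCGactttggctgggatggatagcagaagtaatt
Tdrd6 (chr17:43630565-43630764, + strand): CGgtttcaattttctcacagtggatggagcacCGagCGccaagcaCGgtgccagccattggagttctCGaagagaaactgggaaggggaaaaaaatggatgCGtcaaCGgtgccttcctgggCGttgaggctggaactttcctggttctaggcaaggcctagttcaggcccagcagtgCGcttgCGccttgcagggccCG
Peg10 (chr6:4747760-4747959, + strand): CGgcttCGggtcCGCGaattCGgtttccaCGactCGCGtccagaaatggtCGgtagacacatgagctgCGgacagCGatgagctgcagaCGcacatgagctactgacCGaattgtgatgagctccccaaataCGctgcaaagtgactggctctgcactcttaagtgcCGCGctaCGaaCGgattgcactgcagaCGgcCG
Peg13 (chr15:72810001-72810200, + strand): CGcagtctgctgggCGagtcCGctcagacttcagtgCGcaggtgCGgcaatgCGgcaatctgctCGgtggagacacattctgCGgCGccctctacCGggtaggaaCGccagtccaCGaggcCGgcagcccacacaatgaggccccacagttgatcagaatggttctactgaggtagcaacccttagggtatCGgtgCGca
Gnas (chr2:174328551-174328750, + strand): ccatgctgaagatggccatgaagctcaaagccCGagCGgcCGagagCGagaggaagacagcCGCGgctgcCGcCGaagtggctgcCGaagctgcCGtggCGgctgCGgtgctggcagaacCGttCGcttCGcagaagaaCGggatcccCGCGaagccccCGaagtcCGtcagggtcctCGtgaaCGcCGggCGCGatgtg
Mest (chr6:30738108-30738307, + strand): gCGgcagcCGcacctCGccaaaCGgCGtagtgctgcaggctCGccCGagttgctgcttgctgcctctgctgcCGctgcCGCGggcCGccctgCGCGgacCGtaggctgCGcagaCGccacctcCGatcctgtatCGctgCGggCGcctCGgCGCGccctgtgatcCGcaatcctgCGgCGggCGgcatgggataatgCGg

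These stretches held from 11 to 28 CpGs. In the Dkk1 stretch 14 CpGs were scored and all 14 had a higher level in KO than in WT at 30 ppm, from 62.5% to 100% in KO and from 12.5% to 37.5% in WT. The Hs3st3a1 stretch, which lies in an exon of a gene for an enzyme that sulfates heparan sulfate, also had all 14 scored CpGs higher in KO. The Peg10 stretch went the other way, with 0 of 20 scored CpGs higher in KO and ranges of 40% to 76.9% in KO and 66.7% to 100% in WT. The stretch of Peg13 also had 0 of 13 scored CpGs higher in KO. These regions were picked by their called differences in the same pair, so the direction was set by the choice. CpGs of a stretch also share reads, and the counts of CpGs are therefore a description. In the Dkk1 stretch the 14 CpGs had 92 reads in KO and 103 in WT at 30 ppm, counted at each CpG.

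The 4 libraries had a mean coverage of autosomal CpGs from 13.2 to 21.2 reads. Between 0.914% and 0.938% of reads at mitochondrial CpGs were called methylated, far below the levels of the members. CpG-dense DNA was covered thinly. The median member had 50 listed CpGs but 12 scored ones, and 25.5% of the CpGs that the reference sequence holds in the members were scored. The median member had 127 reads summed over its scored CpGs in KO 30 ppm, 133 in WT 30 ppm, 208 in KO 3 ppm and 157 in WT 3 ppm. No member lies in the Tet1 gene or at its promoter, and these data do not show the Tet1 transcript, so that genotype is known here from the labels alone.

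Like CpG-dense DNA as a whole, the members were mostly promoter sequence. Of the 3067 members, 2418 (78.8%) lay within 1 kb of an annotated start site, 424 in other exons, 61 in introns and 164 between genes. Of all 15574 CpG-dense regions 78.5% were promoters, and 84.6% overlapped a CpG island, beside 86.2% of the members. Among CpG-dense regions under 20% in WT 3 ppm 86.6% were promoters, and among those at 80% or more 12.9% were. A start site of a protein-coding gene lay inside 1603 members. Islands were found from the sequence (at least 500 bp, GC of at least 55% and an observed over expected CpG ratio of at least 0.65). The end of an island lay inside 2607 members (85.0%), 36 (1.17%) lay wholly inside an island and 424 overlapped none. Of the 11117 CpG-dense regions under 20% in WT 3 ppm, 8787 (79.0%) held an island end and 1219 (11.0%) lay wholly inside an island. At least 0.5 of the sequence was repeat-masked in 23 members (0.75%) but in 586 of the 1390 CpG-dense regions at 80% or more. The median GC content was 57.2% in members and 59.3% in the regions under 20%.

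Methylation of the members was higher in both KO libraries than in both WT libraries. The median level was 48.7% in KO 30 ppm, 36.6% in WT 30 ppm, 48.4% in KO 3 ppm and 36.0% in WT 3 ppm. In WT 30 ppm 337 members (11.0%) had a level under 20%, against 73 (2.38%) in KO 30 ppm and 71 (2.31%) in KO 3 ppm. Levels of 80% or more were found for 60 members in WT 30 ppm, 236 in KO 30 ppm and 218 in KO 3 ppm. In all 4 libraries 2387 members (77.8%) were inside the window from 20% to under 80%.

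**Figure D1:**
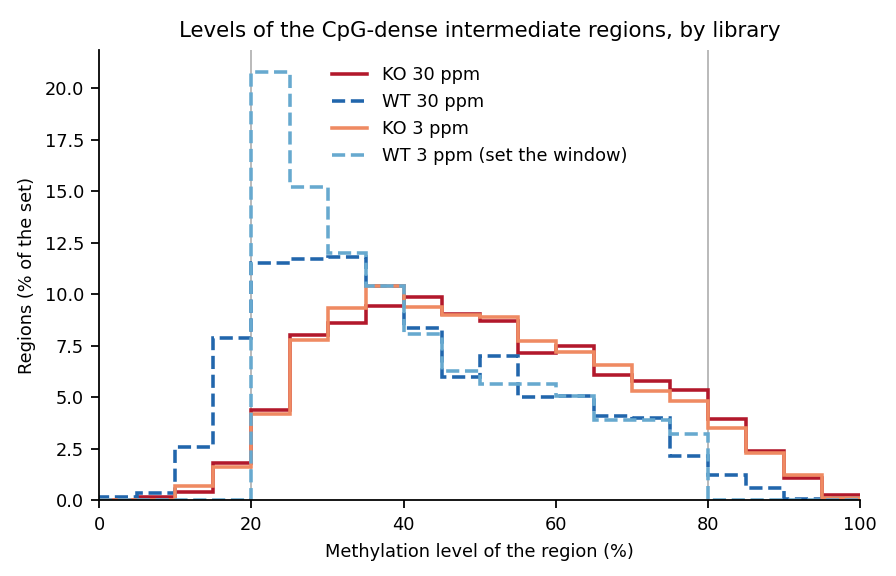
Share of the 3067 members (y axis, %) by methylation level in steps of 5 points (x axis, %), 1 line per library; grey lines mark the window of 20% and 80% that was set in WT 3 ppm. The KO lines lie to the right of the WT lines, with medians of 48.7% and 48.4% against 36.6% and 36.0%.

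Loss of Tet1 at 30 ppm was examined first, since neither library of this pair set the level window. Each region was tested by Fisher's exact test on its methylated and unmethylated reads (two-sided, Benjamini-Hochberg over all 1863069 regions) and called where its adjusted p was under 0.05 and its levels were 10 or more percentage points apart (given as points). Of the members, 503 (16.4%) were higher in KO and 9 (0.293%) lower, where 1.13% of all regions were called higher and 0.0487% lower. The median member had 12 scored CpGs and a level of 36.6% in WT 30 ppm, beside 6 and 87.4% over all regions. Members thus had more CpGs per test and more room to rise, and the part of either in these shares was not tested. The median of KO minus WT was 9.37 points with quartiles of 2.64 and 17.6 points, against 1.23 points over all regions. The difference was above 0 in 2553 members (83.2%), against 59.3% of all regions. The median was above 0 on 19 of 19 autosomes. Before any adjustment or size limit, 41.9% of members and 9.76% of all regions had p under 0.05.

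Intermediate regions of lower CpG density also had higher levels in KO. Those with 20 to 39 CpGs had a median difference of 8.45 points, and 4473 of 22628 (19.8%) were called higher. Intermediate regions with fewer than 20 CpGs had a median of 3.19 points and 2.50% called higher. Their median number of scored CpGs was 6, beside 17 in those with 20 to 39 CpGs and 12 in the members. CpG-dense regions under 20% in WT 3 ppm had a median of 1.85 points with 635 of 11117 (5.71%) called higher, and those at 80% or more had 0.681 points with 24 of 1390 (1.73%). A read was counted at every CpG that it covers, so in CpG-dense DNA 1 read is counted many times, so that the p-values are too small and the intervals too narrow. With CpGs at least 150 bp apart, 2151 members kept 3 or more CpGs and 7 of them (0.325%) were called higher and 0 lower, against 0.0229% of all regions called higher. The median member then had 43.0 reads in WT 30 ppm, and the median difference was 8.79 points. Of the 503 members called higher with all CpGs, 425 could be scored on spaced CpGs, which are a subset of the same CpGs and reads. Among the 7 were regions at Pard3b, Mvb12b, C1qtnf4, Art3, D130017N08Rik and Gm49501, named after their values were seen. Their spaced adjusted p ran from 0.013 for Gm49501 to 0.0499 for C1qtnf4 (exact test). At Pard3b all 3 scored CpGs were kept, so spacing could not change its counts. It had 25 reads in KO 30 ppm (76.0%) and 24 in WT 30 ppm (12.5%). In the 3 ppm libraries it was at 48.2% in KO and 43.8% in WT. C1qtnf4 had 3 spaced CpGs and 36 reads in each library of the 30 ppm pair. Gm49501 had 29 reads in KO 30 ppm and 38 in WT 30 ppm.

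Called members with at least 10 scored CpGs and a usual coverage were ranked by their difference at 30 ppm. The largest gain was found 5863 bp from Dkk1, which encodes a secreted inhibitor of Wnt signalling (chr19:30539001-30540000, between genes). Its level was 89.3% (95% Wilson interval 82.9 to 93.5) in KO 30 ppm, 26.2% (19.3 to 34.5) in WT 30 ppm, 80.5% in KO 3 ppm and 37.0% in WT 3 ppm. Both KO libraries were high and both WT libraries low, with 63.1 points apart in the 30 ppm pair (two-sided exact test, adjusted p = 7.15e-22). On 3 spaced CpGs the difference was 51.9 points with an adjusted p of 0.0789.

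The promoter of Cacng2 (chr15:78119001-78120000), an auxiliary subunit of AMPA-type glutamate receptors, was at 63.4% (56.2 to 70) in KO 30 ppm, 13.5% (8.09 to 21.8) in WT 30 ppm, 65.0% in KO 3 ppm and 26.0% in WT 3 ppm. The exon of Hs3st3a1 (chr11:64520001-64521000) was at 85.0% (81.3 to 88.0), 40.4% (35.1 to 45.9), 92.9% and 37.6% in the same order. In both regions both KO libraries lay above both WT libraries. The differences at 30 ppm were 49.8 points for Cacng2 (exact test, adjusted p = 1.34e-12) and 44.6 points for Hs3st3a1 (exact test, adjusted p = 5.46e-33).

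The other 7 of the 10 largest gains ran from 39.7 points at an exon of Vstm2b to 48.1 points at the promoter of Gm49501, a predicted gene. They also included the promoter of Rgcc, a regulator of the cell cycle, the promoter of Gm19719, an exon of Sema5b, which encodes an axon guidance cue, and regions 9517 bp from Plcl2 and 9025 bp from Nkx1-1, a homeobox gene. In each of the 10 regions both KO libraries had higher levels than both WT libraries. Over all members KO was above WT in 83.2% at 30 ppm and in 82.7% at 3 ppm. The share of all members with both KO libraries above both WT libraries was not counted. The 10, with Dkk1, Cacng2 and Hs3st3a1 among them, were picked by their called differences and WT 3 ppm chose the members. This order is therefore a description. Of the 10, Cacng2 and Sema5b could not be scored on spaced CpGs, and Gm49501 alone was among the 7 regions called on them. Some differences were much smaller there: 21.7 points on spaced CpGs against 45.4 on all CpGs at Rgcc, 22.9 against 40.9 at Nkx1-1, 27.2 against 43.8 at Gm19719 and 29.3 against 45.9 at Plcl2.

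**Figure D2:**
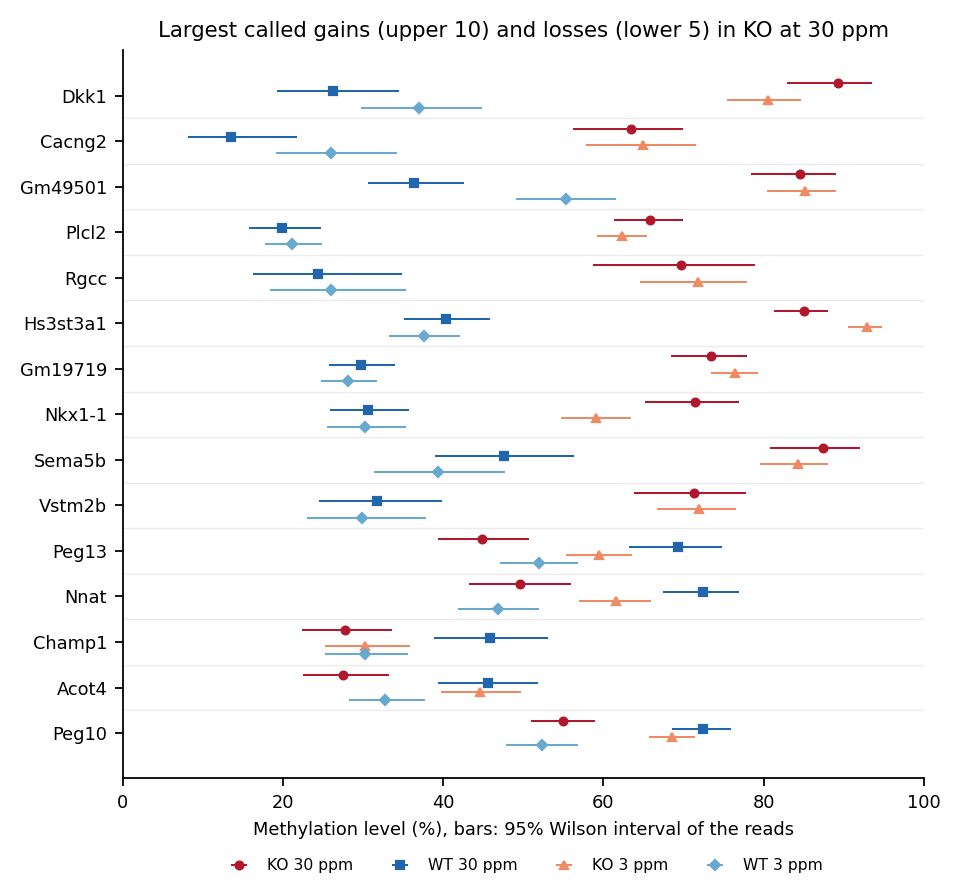
Methylation level (x axis, %) in each of the 4 libraries for the 10 largest called gains and the 5 largest called losses in KO at 30 ppm; bars are 95% Wilson intervals of the reads summed over CpGs, which are too narrow because a read is counted at each CpG it covers. In the upper 10 rows both KO libraries lie to the right of both WT libraries, as for Dkk1 at 89.3% and 80.5% against 26.2% and 37.0%. The rows were picked by their called differences and WT 3 ppm chose the members, so this order is a description. Over all members KO was above WT in 83.2% at 30 ppm and in 82.7% at 3 ppm.

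The choice on WT 3 ppm can move a region back towards the middle in another library, and WT 30 ppm shows by how much. Members from 20% to under 30% in WT 3 ppm, 1102 in all, had a median of 24.2% in both WT libraries. Those from 70% to under 80%, 218 in all, had medians of 74.5% in WT 3 ppm and 73.6% in WT 30 ppm. The median 30 minus 3 ppm difference in WT lay between -0.419 and 0.374 points over the 6 classes of level. In single regions the shift was larger: of the 3067 members, 2670 (87.1%) were also inside the window in WT 30 ppm. The KO minus WT difference at 30 ppm had a median of 9.61 points in the lowest class, 10.3 points from 30% to under 40%, and 6.57 points in the highest class. The share called higher went from 18% in the lowest class to 9.17% in the highest.

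**Figure D3:**
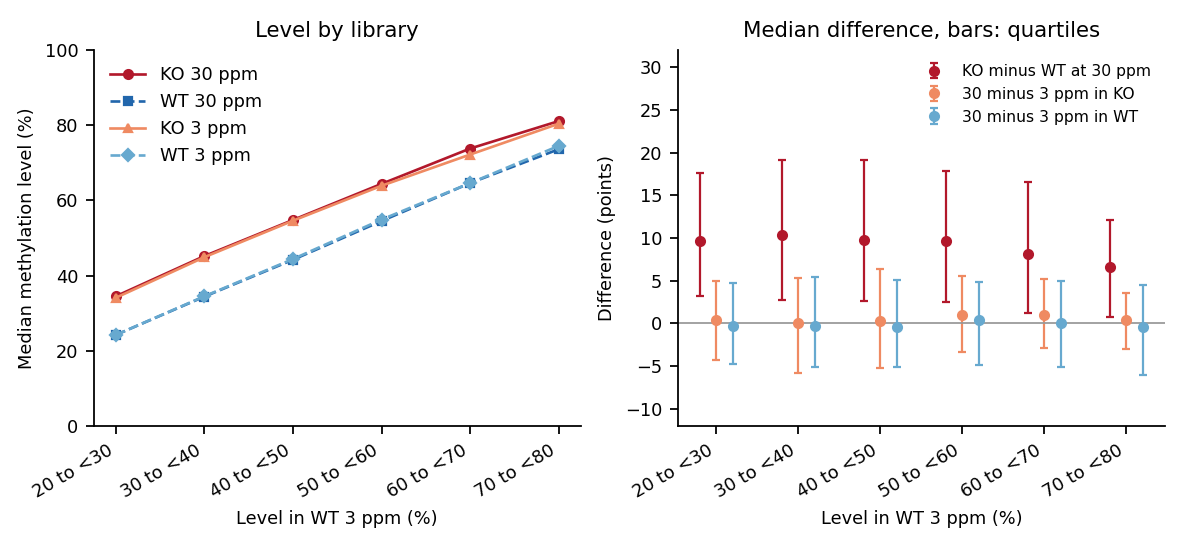
Members by level class in WT 3 ppm (x axis, %). Left, the median level in each library (%); right, the median difference (points) with bars from the lower to the upper quartile. The 2 WT lines run together and both KO lines lie above them in every class, with a median KO minus WT difference at 30 ppm from 6.57 to 10.3 points.

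A level between 20% and 80% can be made of CpGs that are each intermediate or of a mix of low and high ones. Members were called stepped when at least 25% of the scored CpGs were under 20% and at least 25% at 80% or more in WT 3 ppm, and even when at least 70% were from 20% to under 80%. By this rule 342 members (11.2%) were stepped, 424 (13.8%) even and 2301 (75.0%) neither. Even members had a median difference of 13.9 points at 30 ppm and 97 (22.9%) called higher, and stepped members had 5.52 points and 28 (8.19%). Over all members these were 9.37 points and 16.4%, and 1.13% of all regions were called higher. With limits of 10% and 90% for single CpGs, 3.13% were stepped and 35.8% even, with medians of 2.76 and 12.9 points.

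Taken CpG by CpG, the levels at 30 ppm were higher in KO than in WT in each class of WT 3 ppm level. The 18704 scored CpGs under 20% in WT 3 ppm were methylated at 14.5% in KO 30 ppm and 6.91% in WT 30 ppm. The 18317 intermediate CpGs were at 63.0% and 50.5%, and the 7008 CpGs at 80% or more were at 89.0% and 84.9%. In KO 3 ppm the same classes were at 14.6%, 62.6% and 88.3%. The classes were set in WT 3 ppm, where they stood at 4.63%, 50.4% and 90.2%, so WT 30 ppm shows the shift that the choice brings.

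The surroundings of the members were next compared. In 603 members (19.7%) the region on 1 side was under 20% and that on the other at 80% or more in WT 3 ppm, and these members are called edges here. Another 155 (5.05%) lay between methylated regions, 7 between unmethylated ones, and 1815 (59.2%) had an intermediate region on at least 1 side. The last 487 had an unscored neighbour. Edges were promoters in 92.5% of cases, and members between methylated regions in 53.5%. At 30 ppm 89 edges (14.8%) were called higher in KO with a median of 8.60 points, near the 16.4% and 9.37 points of all members. Of all regions, 1.13% were called higher. Of the members between methylated regions, 36 (23.2%) were called higher with a median of 10.1 points. All 7 members between unmethylated regions had a higher level in KO, and 3 were called.

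CpG levels averaged over the 603 edges, turned so that the unmethylated side is on the left, traced an unmethylated valley of about 1 kb with a rise on both sides. In the 30 ppm pair KO exceeded WT by 8.16 points at the centre of the edges and 7.99 points 500 bp towards the methylated side. The difference was 2.51 points 500 bp towards the unmethylated side, where WT stood at 2.24% and KO at 4.76%. At the far side of the valley, 1500 bp from the centre, the difference was 9.59 points. In methylated DNA 1000 bp from the centre it was 2.17 points. Around members between methylated regions the dip in WT 30 ppm reached 42.6%, and the difference was 13.3 points in the dip and 2.53 and 2.20 points at 1000 bp on either side. The 30 minus 3 ppm difference in KO was 0.442 points at the centre of the edges.

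**Figure D4:**
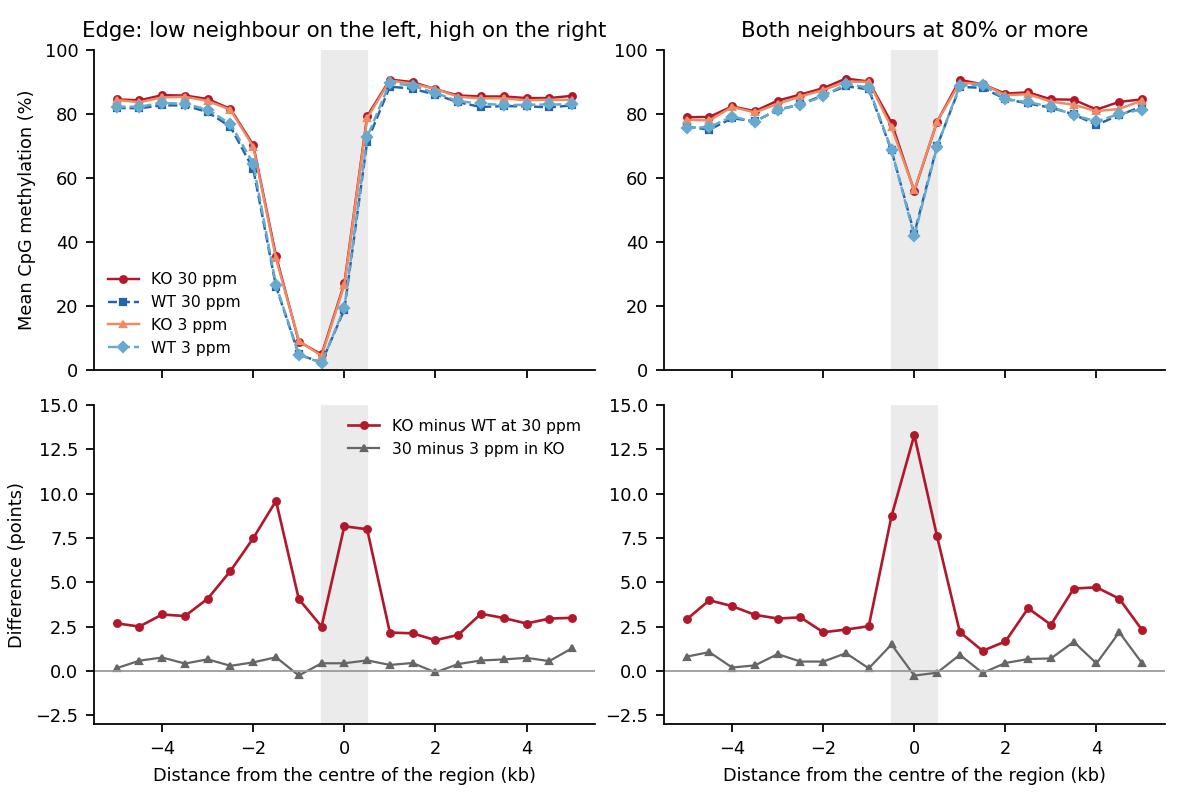
Mean CpG methylation (upper panels, %) and differences (lower panels, points) in bins of 500 bp by distance from the centre of the region (x axis, kb), for 603 edges and 155 members between methylated regions; grey marks the 1 kb of the region. The KO minus WT difference at 30 ppm has 1 peak on each side of the valley for edges (9.59 and 8.16 points) and 1 peak of 13.3 points in the dip of the others, while 30 minus 3 ppm in KO stays between -0.252 and 2.19 points.

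Losses in KO at 30 ppm were few. The 9 members called lower were at Nnat, Peg10, Peg13, Champ1, Camk2b, Gm26796, Acot4, Tmem121 and Gm37013, and the 5 largest differences ran from -17.5 to -24.4 points. Camk2b, Gm26796, Tmem121 and Gm37013, which are not among those 5, are named after their values were seen, to give the count in full. At 3 of the 9, Nnat, Peg10 and Peg13, the gene is imprinted. At Peg13 (chr15:72810001-72811000), an imprinted non-coding RNA gene, the level was 44.9% (39.3 to 50.7) in KO 30 ppm, 69.3% (63.2 to 74.8) in WT 30 ppm, 59.5% in KO 3 ppm and 52.0% in WT 3 ppm. The WT 30 ppm library was high and the KO 30 ppm library low, while the 3 ppm pair lay between them in the other order. The difference at 30 ppm was -24.4 points (exact test, adjusted p = 1.63e-05), and on 4 spaced CpGs -24.0 points with an adjusted p of 0.995. The adjacent Peg13 region (chr15:72809001-72810000) had 64.8% in KO and 59.4% in WT at 30 ppm, with no call (5.34 points). Champ1, which acts in chromosome segregation, was at 27.7% in KO 30 ppm, 45.9% in WT 30 ppm, 30.3% in KO 3 ppm and 30.2% in WT 3 ppm, so that WT 30 ppm alone stood apart.

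Imprinted genes held 42 members, at 28 of the 41 listed genes. A region near several listed genes counts for each of them, as at Peg10 and Sgce. Gnas alone held 11 of the 42 members. Over these 42 the median level was 63.0% in KO 30 ppm, 60.5% in WT 30 ppm, 59.9% in KO 3 ppm and 55.1% in WT 3 ppm, and the lowest and highest values were 27.4% and 86.2% in WT 30 ppm. They stayed inside the window in all 4 libraries in 40 of 42 cases. Even structure was found in 33 (78.6%), against 424 of all 3067 members (13.8%). KO minus WT at 30 ppm had a median of 3.24 points, with 5 (11.9%) called higher and 3 (7.14%) lower. Over all members the median was 9.37 points, with 16.4% called higher and 0.293% lower. Of all regions at these genes, 2.14% were called higher.

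The share of members at imprinted genes that differed by 10 points or more was above that of the other members in the diet pairs and below it in the genotype pairs. Between the WT libraries 19 of the 42 (45.2%) differed by so much, beside 583 of the 3025 other members (19.3%). Between the KO libraries it was 17 of 42 (40.5%) beside 542 (17.9%). For KO versus WT it was 33.3% beside 50.6% at 30 ppm and 26.2% beside 49.2% at 3 ppm, and for KO 3 ppm beside WT 30 ppm 31.0% and 49.0%. The 42 are not separate units, since they include adjacent regions of the same locus, with 11 at Gnas, and each pair compares single embryos. The pairs with WT 3 ppm use the library that chose the members. The median member at an imprinted gene had 257 reads in WT 30 ppm and the median other member 132, counted at each CpG a read covers, and the part of depth in these shares was not tested. No member at an imprinted gene was called on spaced CpGs in either tested comparison.

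Peg10, a retrotransposon-derived gene that shares its promoter region with Sgce, gave 2 members. At chr6:4747001-4748000 the level was 55% in KO 30 ppm, 72.5% in WT 30 ppm, 68.6% in KO 3 ppm and 52.4% in WT 3 ppm, a difference of -17.5 points at 30 ppm (exact test, adjusted p = 8.06e-07). The next 1 kb, chr6:4748001-4749000, was at 66.5%, 61.4%, 60.1% and 65.9% in the same order, with a difference of 5.13 points (exact test, adjusted p = 0.583). On 5 spaced CpGs each, neither region was called (-16.7 and 6.22 points).

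The promoter of Plagl1, a zinc finger gene (chr10:13090001-13091000), was at 79.9% in KO 30 ppm, 51.2% in WT 30 ppm, 60.1% in KO 3 ppm and 40.4% in WT 3 ppm, a gain of 28.7 points at 30 ppm (exact test, adjusted p = 3.43e-06). The adjacent Plagl1 region (chr10:13091001-13092000) was at 65.9%, 63.1%, 59.7% and 56.6% in the same order, with no call at 30 ppm (2.83 points). A member in an intron of Plagl1 had 8.47 points and no call. Of 2 promoter members at Mest, a maternally methylated gene, that at chr6:30738001-30739000 was at 71.1%, 58.5%, 58.0% and 52.0%, a gain of 12.6 points (exact test, adjusted p = 0.000886). In the called Plagl1 and Mest regions KO 30 ppm was the highest library and WT 3 ppm the lowest. The adjacent Mest region (chr6:30737001-30738000) went the other way at 30 ppm, with 57.8% in KO and 63.9% in WT and no call (-6.15 points). Kcnq1ot1, a long non-coding RNA, stayed between 52.5% and 58.9% in all 4 libraries, and Zrsr1 between 60.3% and 64.9%. One of the members at Cdkn1c, a cell cycle inhibitor (chr7:143459001-143460000), was at 48.9% in KO 30 ppm, 41.4% in WT 30 ppm, 39.2% in KO 3 ppm and 24.7% in WT 3 ppm, with no call at 30 ppm (7.56 points, exact test, adjusted p = 0.869).

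**Figure D5:**
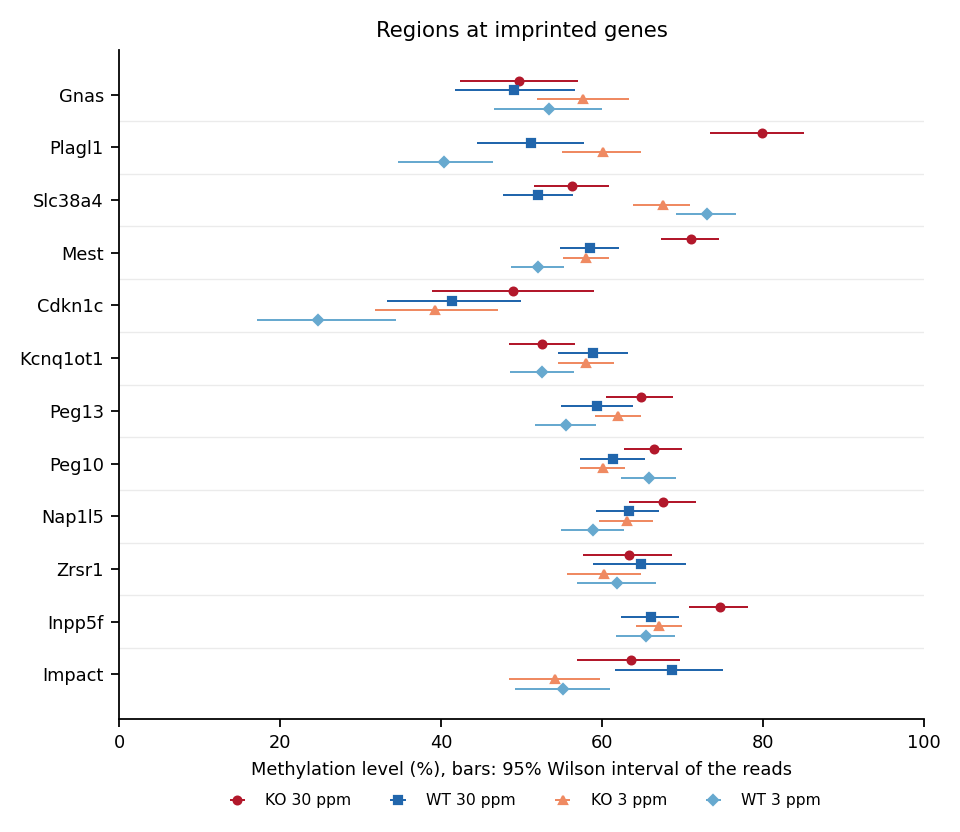
Methylation level (x axis, %) in each library for 12 members at imprinted genes, ordered by distance from 50% in WT 30 ppm. Per gene the member closest to 50% in WT 30 ppm was taken. WT 30 ppm is part of the 30 ppm pair, so the rows do not show how that difference spreads over the 42 members. The regions called lower at Nnat, Peg10 and Peg13 are not among the rows. Bars are 95% Wilson intervals of the reads summed over CpGs, too narrow for the same reason. Kcnq1ot1 lies between 52.5% and 58.9% in all libraries, while Plagl1 runs from 40.4% to 79.9%.

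Most members stood alone: 2682 had no member beside them, 183 runs held 2 regions, 5 held 3 and 1 held 4. The run of 4 and 2 of the runs of 3 lie at Gnas, the complex imprinted locus of the stimulatory G protein alpha subunit. The run of 4 (chr2:174297001-174301000) was at 69.2% in KO 30 ppm, 65.5% in WT 30 ppm, 56.0% in KO 3 ppm and 54.4% in WT 3 ppm, so that both 30 ppm libraries were above both 3 ppm libraries. A run of 3 (chr2:174284001-174287000) was at 53%, 54.9%, 58% and 51.2% in the same order, with KO 3 ppm the highest and 0 of its regions called at 30 ppm. Another run of 3 further along (chr2:174327001-174330000) was at 66.2%, 50.5%, 56.1% and 54.3%, with 2 of its 3 regions called higher in KO at 30 ppm.

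ZFP57, a zinc finger protein that protects imprints, is known to bind the hexamer TGCCGC when it is methylated. The hexamer was searched on both strands of each 1 kb region. It was present in 30 of 42 members at imprinted genes (71.4%), in 1345 of 3025 other members (44.5%) and in 7645 of 15574 CpG-dense regions (49.1%). Even members away from imprinted genes held it in 203 of 391 cases (51.9%). These are counts of letters, and binding was not measured.

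Protocadherin genes, which encode cell adhesion proteins used by neurons as surface tags, held 48 members, all on chromosome 18 and at 45 of 66 listed genes. Their median level was 56.9% in KO 30 ppm, 56.5% in WT 30 ppm, 55.3% in KO 3 ppm and 57.2% in WT 3 ppm. At 30 ppm 1 was called higher and 1 lower, beside 0.694% of all regions at these genes called higher, the median difference was -2.60 points and 19 of 48 (39.6%) were above 0, beside 83.2% of all members. At 3 ppm, where WT chose the members, 3 were past the limits higher and 7 lower, of 14 lower over all members. In the alpha cluster 22 members had a median of 61.3% in WT and 59.4% in KO at 30 ppm, and in the beta cluster 9 members had 64.6% and 63.4%. In the gamma cluster 17 members had medians of 44.3% in WT and 38.3% in KO at 30 ppm and of 41.8% and 43.1% at 3 ppm, and their median difference at 30 ppm was -0.531 points with 9 of 17 below 0. The 2 calls were in the alpha cluster, in overlapping transcripts of several genes. The other 74 members of the chromosome had a median difference of 9.99 points, with 14 called higher.

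At ion channels and neurotransmitter receptors there were 74 members at 60 genes, of which 26 (35.1%) were called higher in KO at 30 ppm and 0 lower, beside 16.4% of all members and 1.6% of all regions at these genes, with a median of 17.5 points. Beside Cacng2, its relative Cacng3 went from 37.8% in WT to 73.8% in KO at 30 ppm (exact test, adjusted p = 1.38e-05) and Grin2c, an NMDA receptor subunit, from 23.6% to 58.9% (exact test, adjusted p = 1e-05). At 3 ppm WT and KO were at 40.8% and 66.0% for Cacng3 and at 29.8% and 54.0% for Grin2c. At axon guidance genes 5 of 12 members (41.7%) were called higher and 0 lower, with a median of 12.9 points, where 1.32% of all regions at these genes were called higher. The exon of Sema5b was at 87.4% in KO 30 ppm, 47.6% in WT 30 ppm, 84.3% in KO 3 ppm and 39.3% in WT 3 ppm. Robo3, a guidance receptor of crossing axons, was at 76.0%, 40.8%, 70.8% and 39.3% at its promoter, and Unc5a, a netrin receptor, at 40%, 19.6%, 47.0% and 20.9%. In all 5 of these genes both KO libraries lay above both WT libraries. Over all members KO was above WT in 83.2% at 30 ppm and in 82.7% at 3 ppm. The 5 were picked by their called differences at 30 ppm and WT 3 ppm chose the members, so this order is a description. On spaced CpGs KO minus WT at 30 ppm was 24.1 points at Cacng3, 23.4 at Robo3 and 34.2 at Unc5a, with no call.

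Transcription factor genes were counted in 4 lists. Of 8 members at homeobox genes 3 (37.5%) were called higher, beside 16.4% of all members and 3.94% of all regions at these genes, with a median of 13.6 points, and Nkx6-3 was at 53.2% in KO 30 ppm and 28.9% in WT 30 ppm (exact test, adjusted p = 4.96e-05). Of 7 members at forkhead, Sox, T-box, Gata and Zic factors 4 (57.1%) were called higher, with a median of 19 points, where 2.81% of all regions at these genes were called. Sox7 was at 51.1% in KO 30 ppm and 25.6% in WT 30 ppm (exact test, adjusted p = 1.49e-08), Sox15 at 56.6% and 34.5% (exact test, adjusted p = 0.00744), and Sox9, a neural stem and glial factor, at 33.1% and 14.1% (exact test, adjusted p = 0.00722). At basic helix-loop-helix factors 0 of 9 members were called in either direction at 30 ppm, with a median of 10.9 points, where 4.86% of all regions at these genes were called higher. Of the same 9, 8 had a higher level in KO at 30 ppm. At 3 ppm, where WT chose the members, all 9 did and 3 (33.3%) were past the limits, beside 21.3% of all members. Zinc finger protein genes held 75 members, 11 (14.7%) called higher, beside 1.41% of all regions at these genes, with a median of 8.89 points, among them Zfp422 at 45.9% in KO 30 ppm and 18% in WT 30 ppm (exact test, adjusted p = 5.74e-06). None of the 4 lists had a member called lower.

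Neural tube closure and planar cell polarity genes held 11 members, with a median of 11.8 points and 2 (18.2%) called higher, near the 16.4% of all members, where 2.47% of all regions at these genes were called higher. Celsr3, an atypical cadherin of planar polarity, was at 40% in KO 30 ppm, 13.7% in WT 30 ppm, 39.6% in KO 3 ppm and 21.2% in WT 3 ppm (exact test, adjusted p = 9.85e-05 at 30 ppm), and Celsr2 at 85.9%, 69.8%, 83.9% and 76.5% (exact test, adjusted p = 0.000511). At folate, one-carbon and DNA methylation genes 4 of 17 members (23.5%) were called higher and 15 (88.2%) had a higher level in KO, near the 16.4% and 83.2% of all members. Of all regions at these genes, 1.72% were called higher. Fpgs, which adds glutamates to folate, was at 72.9%, 45.8%, 61.6% and 50.6% in the same order (exact test, adjusted p = 5.74e-05). Slc46a1, the proton-coupled folate transporter, was at 48.6%, 24.2%, 35.5% and 34.2% (24.4 points, exact test, adjusted p = 6.29e-05). At Slc46a1 the KO and WT libraries of 3 ppm were 1.26 points apart, and 30 minus 3 ppm in KO was 13.2 points and not called (exact test, adjusted p = 0.383). On 4 spaced CpGs of Slc46a1 the difference at 30 ppm was 17.7 points and not called. There WT 3 ppm, at 54.4%, was above KO 3 ppm, at 46.6%, and close to KO 30 ppm. On spaced CpGs KO 30 ppm thus did not stand apart from the other libraries. Celsr2 differed by 17.4 points and Fpgs by 31.7 points on spaced CpGs at 30 ppm, with no call. Neither list had a member called lower.

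Germline genes, many of which are silenced by promoter methylation in somatic cells, held 14 members at 11 of 58 listed genes. Of these, 2 (14.3%) were called higher, near the share of all members, and 0 lower, with a median of 6.42 points, where 1.43% of all regions at these genes were called higher. Both are adjacent regions of the Tdrd6 promoter, a tudor domain gene of spermatids. They were at 72.0% and 72.2% in KO 30 ppm, 36.2% and 46.8% in WT 30 ppm, 70.3% and 71.2% in KO 3 ppm, and 42.6% and 44.4% in WT 3 ppm (exact test, adjusted p = 1.7e-07 and 0.0099). On 3 spaced CpGs the first of them differed by 29.7 points at 30 ppm, with no call. Muscle genes held 11 members with 3 (27.3%) called higher, beside 1.82% of all regions at these genes, and a median of 16.2 points. Among them was Myh3, an embryonic myosin, at 85.5% in KO 30 ppm and 70.1% in WT 30 ppm (exact test, adjusted p = 5.78e-06). On 6 spaced CpGs Myh3 differed by 16.2 points, with no call. Histone genes held 8 members with 1 (12.5%) called higher, at H2afy, beside 1.01% of all regions at these genes, and a median of 4.72 points. The 2734 members in none of the 13 lists had a median of 9.54 points with 437 (16%) called higher.

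Excess FA in KO was the other comparison whose libraries did not set the level window. Between KO 30 ppm and KO 3 ppm 16 members (0.522%) were higher at 30 ppm and 9 (0.293%) lower, where 0.043% of all regions were called higher and 0.0253% lower. The median difference was 0.476 points with quartiles of -4.45 and 5.12, against 0.758 points over all regions, and 1626 members (53.0%) were above 0. At unadjusted p under 0.05 there were 14.2% of members and 7.13% of all regions. On spaced CpGs 0 members were called in either direction. Of the 25 calls, 7 were at imprinted genes, 5 higher and 2 lower. These are 11.9% and 4.76% of the 42 members there, beside 0.522% and 0.293% of all members.

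Among called members with at least 10 scored CpGs and a usual coverage, the largest gain with diet in KO was at Gnas (chr2:174328001-174329000), at 78.5% in KO 30 ppm, 48.7% in KO 3 ppm, 45.5% in WT 30 ppm and 64.6% in WT 3 ppm (29.8 points, exact test, adjusted p = 2.04e-08). The diets were in the opposite order in WT. Sephs2, which makes selenophosphate for selenoproteins, was at 70.5% in KO 30 ppm and 42.4% in KO 3 ppm (28.1 points, exact test, adjusted p = 0.00449), while WT stood at 56.4% and 58.3%. Plagl1, given above, gained 19.8 points (exact test, adjusted p = 0.0111). The lower level at 30 ppm in Nhlh1, a neuronal helix-loop-helix factor, was 44.8% against 64.6% in KO 3 ppm (exact test, adjusted p = 0.0442), with 40.7% and 48.0% in WT. A different Gnas region (chr2:174285001-174286000) was at 48.4% in KO 30 ppm and 67% in KO 3 ppm (exact test, adjusted p = 5.24e-05), beside 53.3% and 56.2% in WT. A region 40910 bp from Zfp345, its nearest gene, was at 36.1% in KO 30 ppm and 54.5% in KO 3 ppm (exact test, adjusted p = 0.00814). There WT too was lower at 30 ppm, at 28.3% against 38.6%. Chosen after its values were seen, Grb10, an imprinted growth inhibitor with 88 scored CpGs in 1 region, was at 88.7% in KO 30 ppm, 80.7% in WT 30 ppm, 69.6% in KO 3 ppm and 63.3% in WT 3 ppm (30 versus 3 ppm in KO, exact test, adjusted p = 1.03e-27). At Grb10 both 30 ppm libraries lay above both 3 ppm libraries.

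The 3 ppm pair used the library that chose the members, so it is a description. KO exceeded WT by a median of 9.13 points, and 652 members had a higher and 14 a lower level past the same limits, where 1.1% and 0.114% of all regions were past them. Of the 503 members called higher at 30 ppm, 298 (59.2%) were among the 652, which is 45.7% of those, and 483 of the 503 had a higher level in KO at 3 ppm. The pairs share no library, but WT 3 ppm set the window. When the window was set in WT 30 ppm in its place, 3063 regions entered, 2670 of them members, and the 3 ppm pair could be tested. Of the 3063, 709 (23.1%) were then called higher and 14 lower, with a median of 9.81 points. KO 3 ppm set beside WT 30 ppm, which differ in diet as well as genotype, gave a median of 8.97 points. The 30 minus 3 ppm difference in WT had a median of -0.256 points over the members.

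The deposited lists of differentially methylated regions (DMRs), which the authors called with DSS, hold positions only. They were called from the same libraries, so an overlap is no separate support. A hyper DMR of KO versus WT at 30 ppm overlapped 255 members (8.31%), where 0.297% of all regions overlapped one, and a hypo DMR overlapped 8 members (0.261%, beside 0.00204% of all regions). Hyper DMRs of 30 versus 3 ppm in KO overlapped 9 members (0.293%, beside 0.00617% of all regions) and hypo DMRs 4 (0.13%, beside 0.00279%). At the limits of the window, members at 20% in WT 3 ppm were found at Des, Rnpepl1 and Akirin2, and the regions at Pcdhga10, Pcdhgb6 and Ints10 were just outside at 19.9%. At the upper limit Prkg1, Prr23a2 and Ddx4 were inside at 79.7% to 79.8%, and Gm13587, Tmem68 and Limd2 outside at 80%. These regions had from 3 to 47 scored CpGs. Akirin2, with 5 scored CpGs, was at 4.05% in WT 30 ppm and 5.13% in KO 30 ppm, so its place among the members rests on WT 3 ppm alone.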

How the data were processed

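WGBS had been done on 4 libraries of embryonic day 11.5 brain, 1 embryo each. Per the labels and the study's methods, the authors trimmed reads with Trim Galore 0.6.10, aligned them with Bismark 0.23.1 to GRCm38.p6 (mm10), removed duplicates and merged both strands of a CpG into 1 call. The deposited tables give per CpG the fraction of methylated reads and the count of reads as the authors computed them, not normalised; the lowest count listed was 2. The product of both was a whole number within 4.37e-11 and served as the methylated count. The deposited DMR positions were used for overlaps of 1 bp or more, and lists that involve WT 3 ppm in a comparison were not used here. All 18974562 autosomal CpGs lay on a CG of the reference. The lambda spike-in was not used here.

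Every CpG covered 5 times or more in each of the 4 libraries was kept, and reads were summed over 1 kb regions. Fisher's exact test (two-sided, Benjamini-Hochberg over all regions, Python 3.11.15, numpy 2.4.6, scipy 1.17.1) compared 2 libraries. The test was tested on simulated reads that were drawn independently. That simulation could not show the effect of reads counted at several CpGs or of the spread between embryos. Wilson intervals (95%) leave out the spread between embryos and are too narrow even for counting error, since a read is counted at each CpG it covers. Annotation was GENCODE; a promoter reached 1 kb to each side of a start site, and a listed gene took members within 5 kb. The alternatives were other read minima, thinning, spaced CpGs, another test and size, other densities, windows, grids and coverage, and leaving out chromosome 10 or CpGs that look like strain differences.

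Named regions had 10 or more scored CpGs and a coverage of 0.5 to 1.5 times the autosomal mean in every library: among called members the 10 largest gains and 5 largest losses at 30 ppm and the 3 largest diet changes each way in KO, 12 at imprinted genes, up to 3 per other list, the 3 longest runs and the 3 regions on each side of each window limit, the runs and the limits without those 2 filters. The regions and the 13 gene lists were chosen with earlier results of these data known. One region called on spaced CpGs is counted but not reported here.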

Additional observations from a re-analysis of the deposited data

Results flagged for a closer look

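Over the members, the median 30 minus 3 ppm difference was 0.476 points in KO and -0.256 points in WT. The pair of medians stood out because they have opposite signs, and the difference between them was not tested. Over all 1863069 regions the medians also had opposite signs, 0.758 points in KO and -0.593 points in WT. WT 3 ppm, which is part of the WT value, chose the members. With the level window set in WT 30 ppm the WT median was 1.41 points, and over the 2670 regions inside both windows it was 0.503 points, so the sign in WT depends on the library that sets the window.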

How the results depend on the processing

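Of 89 values recomputed under other settings, 58 stayed near the reported one and 31 moved. At 30 ppm the median of KO minus WT stayed between 6.66 and 9.76 points over 13 alternatives, and the diet median in KO between 0.31 and 0.926 points over 14, all above 0. For KO versus WT at 30 ppm, the share called lower was 0.104% with 10 reads per CpG, 0.75% with 2, 0% with spaced CpGs, 0.163% with a z value scaled by its robust SD, 0.0652% at 20 points, 0.444% for 50 or more CpGs and 0.477% with 10 scored CpGs. The share called higher was 0.325% with spaced CpGs and 8.18% with the scaled z, and the median was 6.66 points with 2 reads, 8.79 with spaced CpGs and 8.12 with 10 scored CpGs. For 30 versus 3 ppm in KO the share called higher was 0.104% with 10 reads, 1.24% with 2 reads, 0.134% with thinned reads, 0% with spaced CpGs, 0.0978% with the scaled z, 0.0652% at 20 points and 0.848% with 10 scored CpGs. The share called lower was 0.156%, 0.619%, 0.101%, 0%, 0.0978%, 0.0326% and 0.477% in the same order, and 0.458% for a window of 30% to under 70%. With 10 reads per CpG, 2 of 1920 members were called higher with diet and 3 lower, the reverse of the reported order. These counts are small, and the reported ones were 16 higher and 9 lower (0.522% and 0.293%). The diet median was 0.926 points with thinned reads. With the window set in WT 30 ppm the median of the 3 ppm pair was 9.81 points. With CpG limits of 10% and 90%, 3.13% of members were stepped and 35.8% even. Spaced CpGs left a median of 43.0 reads per member in WT 30 ppm, so that fewer reads enter each test. They also lower the number of times that 1 read is counted. The part of each in the lost calls was not tested, nor was the cause of the other changes. No paired analysis was possible because each group held 1 library.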
